A study of Rattus norvegicus with 39 samples.

Results

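Hexokinases attach the phosphate that traps glucose inside a cell, and phosphofructokinase carries out the committed step of glycolysis further down. Hk1 is the hexokinase that dominates in brain and sits largely on the mitochondrial outer membrane, while Hk2 is the insulin- and hypoxia-responsive form best known from muscle, fat and tumours. Phosphofructokinase is a tetramer built from the liver (Pfkl), muscle (Pfkm) and platelet (Pfkp) subunits, all of which are made in brain, and Ak4 is an adenylate kinase of the mitochondrial matrix. These 6 genes were taken as a group by gene symbol, and the group was chosen by the log2 differences between the study's groups, known from these same arrays, so those differences are given as a description. The platform annotation gave them 13 of the 8799 probe sets on the array, 5 for Hk1, 2 each for Hk2, Pfkm and Pfkp, and 1 each for Pfkl and Ak4.

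The values came from CA1, the output field of the hippocampus, of 39 male rats of the strain labelled Fisher 344, with 1 Affymetrix array per animal. LowInj rats (n = 10) were adrenalectomized, carried a 25 mg corticosterone pellet and received intraperitoneal corticosterone at 5 mg a day over the last 4 days. IntermediateCort rats (n = 9) were adrenalectomized and carried a 200 mg pellet, and LowCort rats (n = 10) were adrenalectomized and carried a 25 mg pellet. The sham rats (n = 10) kept their adrenals and carried an inert pellet. All were operated on at 14 to 15 months, held for 3 months and killed at 18 months. Every adrenalectomized rat was first given saline with 1% sucrose and 1.25 mg injections of corticosterone sulfate, and the rats with the 25 mg pellet stayed on saline with sucrose, so the pellet dose and the drinking fluid cannot be told apart. Adrenalectomy also removes the adrenal source of adrenaline and aldosterone, and a pellet replaces the daily rhythm of corticosterone with a slow release.

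The arrays had medians between 7.27 and 7.33 on the log2 scale, and pairs of arrays within a group correlated at 0.975 to 0.997 across probe sets. Of the CA1 markers listed for the check, probe sets of Nr3c2, Pou3f1 and Dcn were detected, Spink8 was dim, and the remaining 4 were not on the array under their symbols. On 2 LowInj arrays the Gapdh control probe sets at the 3' and 5' ends of the transcript lay furthest apart, which can reflect shortened RNA or short labelled products. The log2 difference between these probe sets averaged 1.03 ± 0.60 in LowInj, 0.63 ± 0.21 in IntermediateCort, 0.81 ± 0.24 in LowCort and 0.70 ± 0.22 in sham (SD). For the beta-actin controls the same difference ran from 0.32 to 1.68 in LowCort and from 0.10 to 1.52 in sham. It ran from 0.04 to 2.13 in LowInj and from 0.19 to 1.45 in IntermediateCort, and its mean was highest in LowCort. The measures did not always go together. LowInj 35 had the largest Gapdh difference (2.41) and the smallest beta-actin difference (0.04). LowInj 39, next on Gapdh (1.56), had the largest beta-actin difference (2.13).

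The genes for which a probe set set LowCort apart were Hk2 and Ak4. Their promoter windows, the 250 bases before the annotated transcription start in the RefSeq annotation of rat assembly GRCr8, are printed 5′ to 3′ on the gene's own strand, because corticosteroid receptors and hypoxia-inducible factors act through such regions at many genes. Capitals mark any match, on either strand, to the glucocorticoid response element core TGTTCT or to the hypoxia response element cores ACGTG and GCGTG. The Hk2 window lies at chr4:116841276-116841525 on the minus strand, directly before the annotated gene at chr4:116792258-116841275. The Ak4 window lies at chr5:121154886-121155135 on the plus strand, inside the annotated gene at chr5:121154565-121214403, which begins with an earlier start site.
Hk2: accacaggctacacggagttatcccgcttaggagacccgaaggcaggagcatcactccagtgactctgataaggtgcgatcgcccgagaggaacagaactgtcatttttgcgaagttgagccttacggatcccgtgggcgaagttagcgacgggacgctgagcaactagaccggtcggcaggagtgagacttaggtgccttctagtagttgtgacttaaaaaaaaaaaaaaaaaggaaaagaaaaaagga
Ak4: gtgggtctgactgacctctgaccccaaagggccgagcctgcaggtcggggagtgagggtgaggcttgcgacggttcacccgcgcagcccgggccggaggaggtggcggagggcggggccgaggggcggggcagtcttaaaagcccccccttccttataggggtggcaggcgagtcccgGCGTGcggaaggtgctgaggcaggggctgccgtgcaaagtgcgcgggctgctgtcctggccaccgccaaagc
The Ak4 window held 1 GCGTG core, which stood in 25.9% of the 33469 rat promoter windows of this length. Among the 6 genes, GCGTG also stood in the windows of Pfkl (2 copies) and Pfkp (1 copy). The Hk2 window held 0 of these motifs. TGTTCT was found in 0 of the windows of the 6 genes, against 17.5% of all windows. ACGTG was found only in the Pfkm window among the 6, against 16.6% of all. These letters describe the windows and say nothing about binding elsewhere. The GC content was 49.6% for Hk2 and 70.8% for Ak4, against a median of 51.2% over all windows.

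Hk2 was read by a pair of probe sets, and they went apart. The first, D26393exon_s_at, is named after an exon, and the second, M68971_at, has no such label. Which stretch of the transcript each one covers was not used here, and whether either also reads other transcripts was not tested. D26393exon_s_at was the dimmer, with a mean of 7.19 over all arrays against 8.01.

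The exon-derived Hk2 probe set was highest in LowCort. Its log2 value ran from 7.06 through a median of 7.20 to 7.53 in LowInj and from 6.90 through 7.08 to 7.25 in IntermediateCort. It ran from 7.19 through 7.57 to 7.70 in LowCort and from 6.66 through 6.94 to 7.10 in sham. Every LowCort animal therefore lay above every sham animal. Of the 10 LowInj animals, 2 lay in the sham range, 6 in the LowCort range and 2 between them. The group means were 7.26 ± 0.16 in LowInj, 7.07 ± 0.11 in IntermediateCort, 7.53 ± 0.15 in LowCort and 6.90 ± 0.16 in sham (SD).

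**Figure D1:**
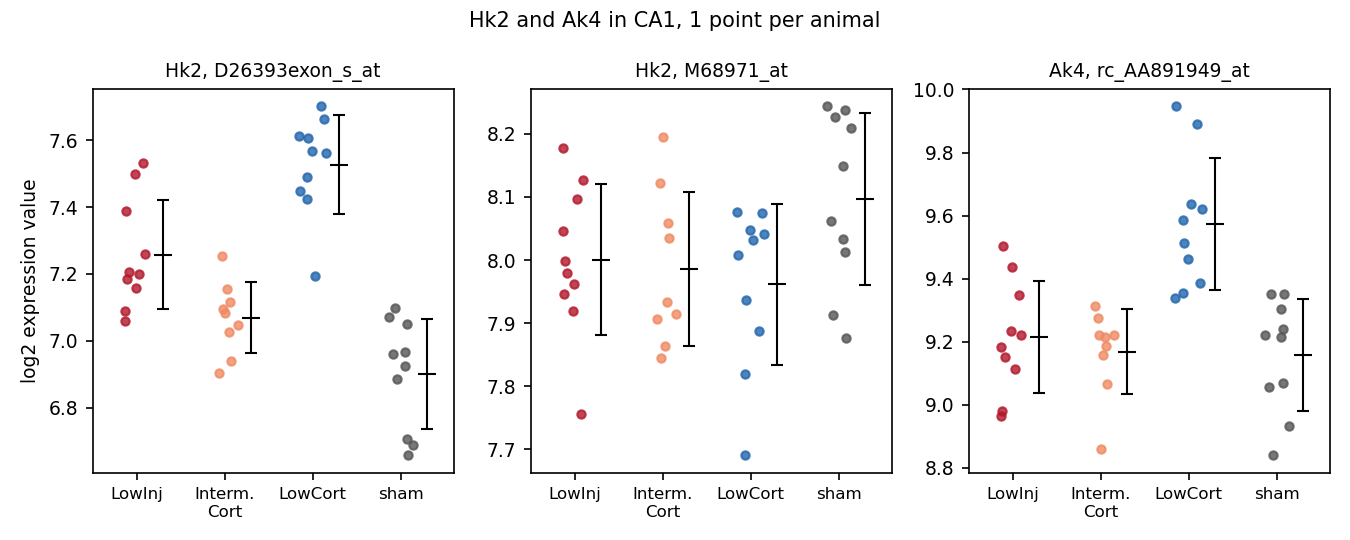
Log2 expression values of both Hk2 probe sets and of the Ak4 probe set, 1 point per animal, with the group mean and SD to the right of the points. For the exon-derived Hk2 probe set, the LowCort animals (7.19 to 7.70) sit above all sham animals (6.66 to 7.10). For the other Hk2 probe set the 4 groups overlap, and for Ak4 the LowCort animals (9.34 to 9.95) sit above all IntermediateCort animals (8.86 to 9.31).

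Set against sham, the exon-derived Hk2 probe set was higher by 0.63 (SE 0.07, 95% interval 0.49 to 0.76) in LowCort, a 1.54-fold difference. It was higher by 0.36 (SE 0.07, 0.22 to 0.49) in LowInj, where 8 of 10 animals lay above the highest sham animal. IntermediateCort came nearest to sham, at 0.17 (SE 0.07, 0.03 to 0.31), with 9 of 9 animals above the sham mean. Against LowCort, IntermediateCort was lower, at -0.46 (SE 0.07, -0.60 to -0.32), and 8 of its 9 animals lay below the lowest LowCort animal. LowInj minus LowCort was -0.27 (SE 0.07, -0.40 to -0.14), with 9 of 10 animals below the LowCort mean, and LowInj minus IntermediateCort was 0.19 (SE 0.07, 0.05 to 0.33). LowInj minus IntermediateCort shrank to 0.11 (SE 0.06) with the Gapdh and beta-actin 3' minus 5' differences as covariates.

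The order of the group means for this probe set was thus LowCort, LowInj, IntermediateCort and sham. With limma's moderated test over 6118 probe sets and Benjamini-Hochberg adjustment, a probe set was called at an adjusted p under 0.05. By that rule no neighbouring pair in the order was called, while LowCort against sham, LowInj against sham and IntermediateCort against LowCort were. Hk2 was chosen with these differences known, so its calls describe the values and are no independent support. The comparisons also share their LowCort or sham arrays. The call between LowInj and sham was lost in a fit on those groups alone and held at 0.31 without the 2 LowInj arrays with the largest Gapdh difference, while LowInj against LowCort was called in 4 of the 10 other settings that kept this probe set, one of them without those 2 arrays (-0.32).

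The other Hk2 probe set, M68971_at, ran from 7.76 through a median of 7.99 to 8.18 in LowInj and from 7.84 through 7.93 to 8.20 in IntermediateCort. It ran from 7.69 through 8.02 to 8.08 in LowCort and from 7.88 through 8.11 to 8.24 in sham. All 4 groups overlapped, and sham had the highest mean. LowCort minus sham was -0.14 (SE 0.06, 95% interval -0.25 to -0.02), opposite in sign to the exon-derived probe set, and 10 of 10 LowCort animals lay below the sham mean. The differences of IntermediateCort and LowInj from LowCort were 0.02 and 0.04 (SE 0.06 each). This probe set was called in 0 of the 6 comparisons.

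Within each animal, the exon-derived value minus the other Hk2 value averaged -0.74 ± 0.27 in LowInj, -0.92 ± 0.14 in IntermediateCort, -0.43 ± 0.18 in LowCort and -1.20 ± 0.23 in sham (SD). The sham animals ran from -1.53 to -0.81 and the LowCort animals from -0.84 to -0.19, so the ranges of these groups touched only at their ends. With group means removed, the Hk2 probe sets were not seen to vary together across the 39 animals (Pearson's r = -0.174, adjusted permutation p = 0.515 over 78 pairs of probe sets, Spearman's rho = -0.156). Without the 2 animals farthest from the median r was -0.045, and within groups it ran from -0.776 in LowInj to 0.272 in IntermediateCort.

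Ak4, which transfers phosphate between nucleotides in mitochondria and is induced by hypoxia in several cell types, had 1 probe set, rc_AA891949_at. Its log2 value ran from 8.96 through a median of 9.20 to 9.50 in LowInj and from 8.86 through 9.21 to 9.31 in IntermediateCort. It ran from 9.34 through 9.55 to 9.95 in LowCort and from 8.84 through 9.22 to 9.35 in sham. All LowCort animals lay above all IntermediateCort animals, while 3 of 10 LowInj animals reached into the LowCort range and the LowCort and sham ranges met at their ends. The ranges of LowInj, IntermediateCort and sham overlapped widely. The means were 9.21 ± 0.18 in LowInj, 9.17 ± 0.13 in IntermediateCort, 9.57 ± 0.21 in LowCort and 9.16 ± 0.18 in sham (SD).

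LowCort minus sham for Ak4 was 0.42 (SE 0.08, 95% interval 0.26 to 0.57), a 1.33-fold difference, with 9 of 10 LowCort animals above the highest sham animal. IntermediateCort minus LowCort was -0.40 (SE 0.08, -0.57 to -0.24), and all 9 IntermediateCort animals lay below the lowest LowCort animal. LowInj minus LowCort was -0.36 (SE 0.08, -0.52 to -0.20), with 7 of 10 LowInj animals below the lowest LowCort animal. These were the Ak4 comparisons called. The call between LowInj and LowCort was lost in a fit on those groups alone, in one without the pair of arrays with the largest Gapdh difference, and in 5 of 39 fits that left out a single array. Against sham, IntermediateCort differed by 0.01 (-0.15 to 0.17) and LowInj by 0.06 (-0.10 to 0.21).

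Ak4 and the exon-derived Hk2 probe set differed in where LowInj lay. For Ak4 the LowInj mean was 0.06 above sham, and for Hk2 it was 0.36 above sham. With the Gapdh and beta-actin 3' minus 5' differences as covariates these were 0.05 (SE 0.08) and 0.29 (SE 0.06). With group means removed these probe sets were not seen to vary together across animals (r = 0.098, rho = 0.127, adjusted permutation p = 0.773 for r). Whether the LowInj differences of these genes differ from each other was not tested.

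Hk1 had 5 probe sets, of which the 3' control, the middle control and the 5' control belong to the array's quality set and stayed outside the tested table. All 5 were lower on average in LowCort than in sham. The middle control averaged 8.55 ± 0.28 in LowInj, 8.60 ± 0.18 in IntermediateCort, 8.33 ± 0.24 in LowCort and 8.61 ± 0.19 in sham (SD), and LowCort minus sham was -0.29 (SE 0.10, 95% interval -0.48 to -0.09). The 3' control differed by -0.32 (SE 0.16) and the 5' control by -0.34 (SE 0.20). In the tested table, U27319exon_at differed by -0.14 (SE 0.06) and rc_AI012593_at by -0.12 (SE 0.10). The group ranges overlapped for each of them, and in a table that included the controls none of the 5 was called in any comparison.

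**Figure D2:**
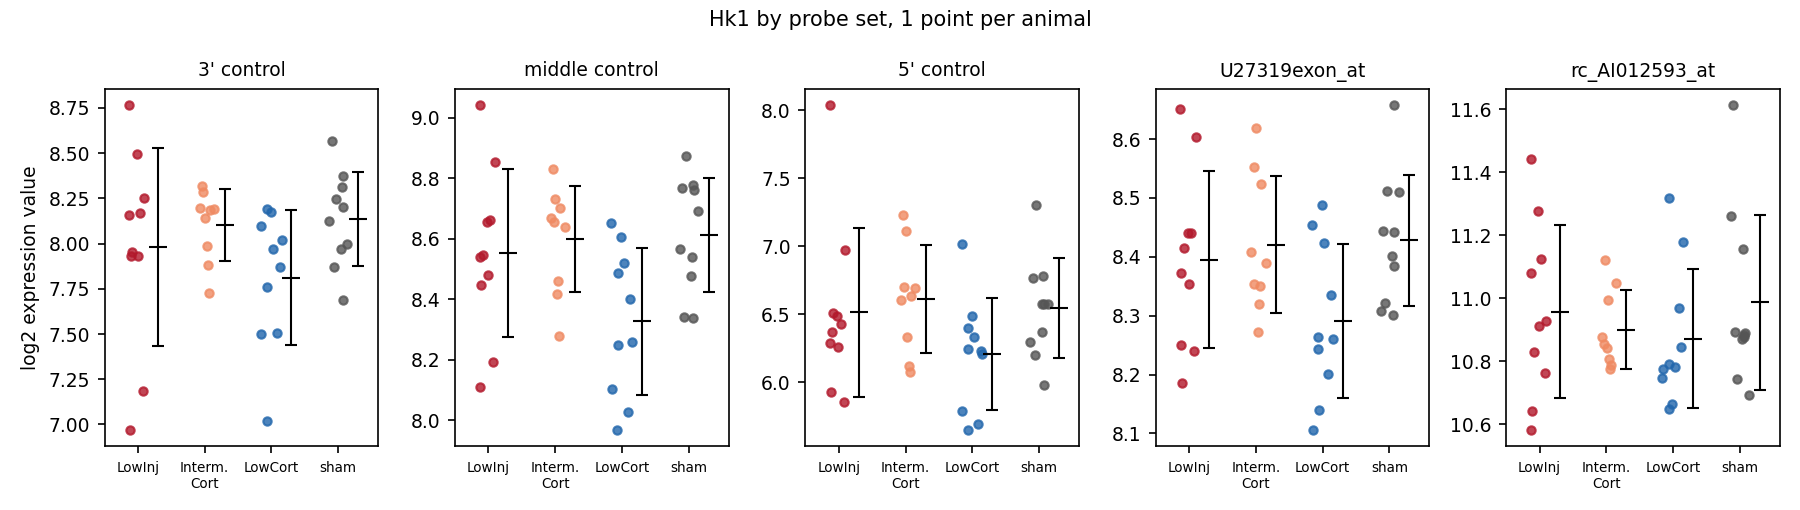
Log2 expression values of the 5 Hk1 probe sets, 1 point per animal, with the group mean and SD to the right of the points, each panel on its own axis. In each panel the LowCort mean is the lowest of the 4, and the groups overlap. The LowInj animal at 8.04 in the 5' panel stands above the other LowInj animals.

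IntermediateCort minus LowCort was above 0 for 5 of 5 Hk1 probe sets, from 0.03 for rc_AI012593_at to 0.41 for the 5' control, and LowInj minus LowCort was likewise above 0 for all 5. These comparisons share the LowCort arrays with the one against sham. The difference between the 3' and 5' controls of Hk1 was much the same in each group, averaging 1.47 ± 0.39 in LowInj, 1.49 ± 0.26 in IntermediateCort, 1.60 ± 0.23 in LowCort and 1.59 ± 0.27 in sham (SD). With the Gapdh and beta-actin 3' minus 5' differences as covariates, LowCort minus sham shrank to -0.18 (SE 0.06) for the middle control, -0.16 (SE 0.09) for the 3' control and -0.14 (SE 0.12) for the 5' control.

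The phosphofructokinase subunits gave no call in any of the 6 comparisons. Pfkl averaged 8.86 ± 0.25 in LowInj, 8.86 ± 0.14 in IntermediateCort, 8.79 ± 0.16 in LowCort and 8.87 ± 0.17 in sham (SD), and its 6 differences lay between -0.08 and 0.07 (SE 0.08). For Pfkp, L25387_at averaged 9.13 ± 0.27 in LowInj, 9.13 ± 0.15 in IntermediateCort, 9.21 ± 0.15 in LowCort and 9.17 ± 0.17 in sham. The other Pfkp probe set, L25387_g_at, had a narrower spread and its lowest mean in IntermediateCort, 10.90 ± 0.15, against 11.05 ± 0.10 in LowCort, a difference of -0.14 (SE 0.07, 95% interval -0.29 to -0.00). Over both Pfkp probe sets and all 6 comparisons, the differences lay between -0.14 and 0.12.

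Pfkm had the widest spread among the subunits. D21869_s_at averaged 8.36 ± 0.45 in LowInj, 8.66 ± 0.48 in IntermediateCort, 8.38 ± 0.40 in LowCort and 8.55 ± 0.35 in sham (SD), and its differences between groups had an SE of 0.18. U25651_at averaged 11.11 ± 0.35 in LowInj, 11.32 ± 0.10 in IntermediateCort, 11.23 ± 0.07 in LowCort and 11.20 ± 0.29 in sham (SD). On this probe set 2 LowInj animals, at 10.41 and 10.52, and 1 sham animal, at 10.39, lay well below all other animals of the study, and the SD of both groups is correspondingly large. The 12 Pfkm differences lay between -0.30 and 0.29, and the widest 95% intervals, those of D21869_s_at, reached from -0.68 to 0.66.

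**Figure D3:**
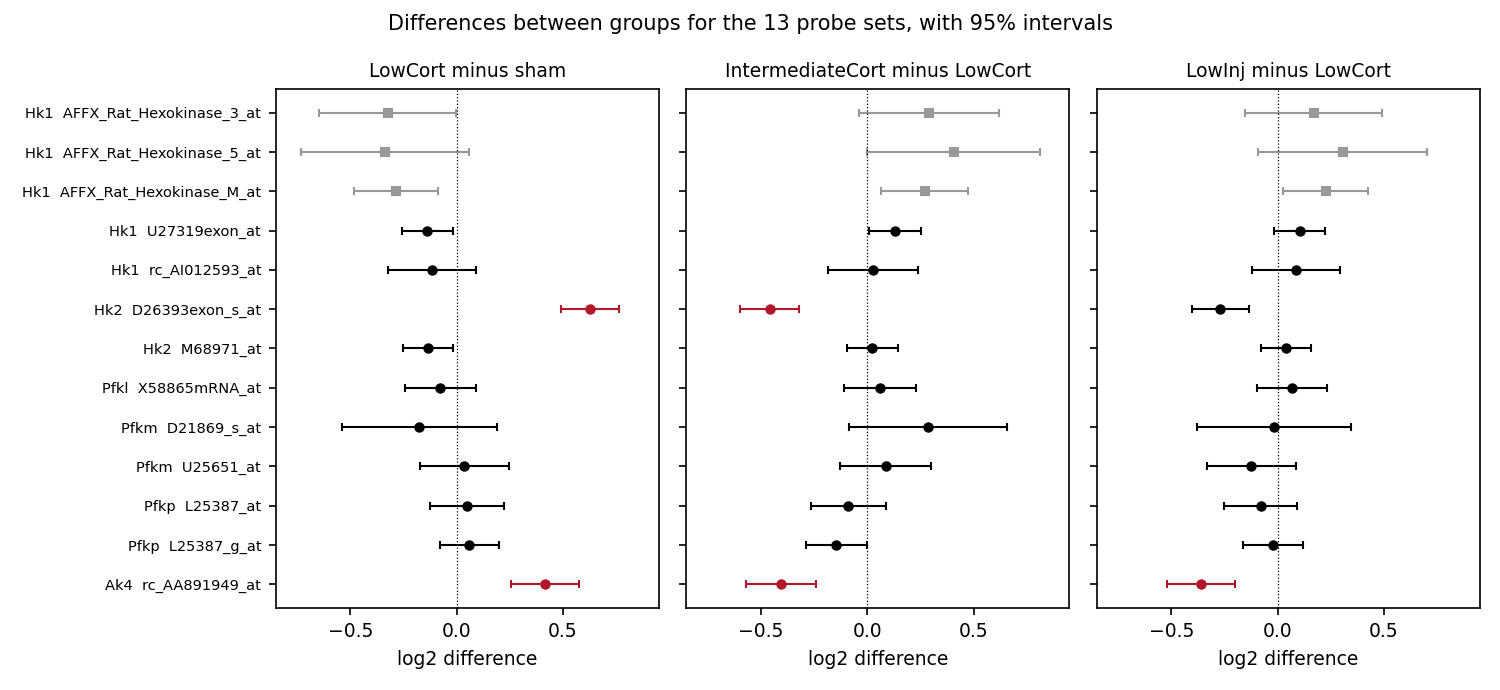
Log2 differences between groups with 95% intervals for the 13 probe sets, for LowCort minus sham, IntermediateCort minus LowCort and LowInj minus LowCort. Red points were called over the whole table, black points were not, and grey squares are the Hk1 controls outside the tested table. The exon-derived Hk2 probe set (0.63) and Ak4 (0.42) stand to the right in the first panel and to the left of 0 in the other panels.

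Counted over the 10 tested probe sets of the group, LowCort against sham gave 2 higher and 0 lower, where 1.68% of all tested probe sets were called. IntermediateCort against LowCort gave 0 higher and 2 lower, where 2.14% were called. LowInj against LowCort gave 1 lower (Ak4), where 0.343% were called, and LowInj against sham gave 1 higher (Hk2), where 0.229% were called. IntermediateCort against sham gave 0 by limma, where 0.0163% were called, and 1 of 10 at an unadjusted p under 0.05, against 4.22% of all tested probe sets. LowInj against IntermediateCort likewise gave 0 by limma, where 0.196% were called, and 1 of 10 at an unadjusted p under 0.05, against 11.4% of all. Groups that did not overlap occurred in 0.229% of tested probe sets for LowCort against sham, the case of the exon-derived Hk2 probe set, and in 0.327% for IntermediateCort against LowCort, the case of Ak4. The genes were chosen with these values in view, so the counts are given without a reading. The median difference of the 10 probe sets was -0.02 for LowCort minus sham and 0.03 for IntermediateCort minus LowCort, against -0.01 and 0.01 over all tested probe sets. The single values ran from -0.17 to 0.63 and from -0.46 to 0.29.

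The 3' to 5' differences of the control genes were not used to choose the group, and 26 relations between them and the 13 probe sets were computed with group means removed and animals permuted within groups. Pfkm by D21869_s_at followed the Gapdh difference closely (r = -0.755, rho = -0.878, adjusted p = 5.2e-05 for r, at the smallest permutation p of 1e-05). Without the 2 animals farthest from the median, r was -0.847. Within groups, r was -0.788 in LowInj, -0.923 in IntermediateCort, -0.935 in LowCort and -0.775 in sham, so the probe set read lower in every group where the 5' end of Gapdh read lower. For Pfkm by U25651_at the relation to Gapdh was not called (r = -0.33, rho = -0.075, adjusted p = 0.156 for r), while it rose with the beta-actin difference (r = 0.499, rho = 0.372, adjusted p = 0.0222 for r and 0.0348 for rho). Within groups that r was 0.643 in LowInj, 0.341 in IntermediateCort, 0.071 in LowCort and 0.472 in sham. The animals lowest on this probe set, sham 6 and LowInj 34 and 35, also had the smallest beta-actin differences (0.10, 0.17 and 0.04). Their Gapdh differences were not small, at 0.96, 1.04 and 2.41. Without the 2 animals farthest in the beta-actin difference, which leaves those low animals in, r was 0.442. The Pfkm probe sets were not seen to vary together (r = -0.034, rho = -0.096, adjusted p = 0.929 for r). With the differences as covariates, LowCort minus sham for D21869_s_at was 0.02 (SE 0.08), against -0.17 (SE 0.18) without them.

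**Figure D4:**
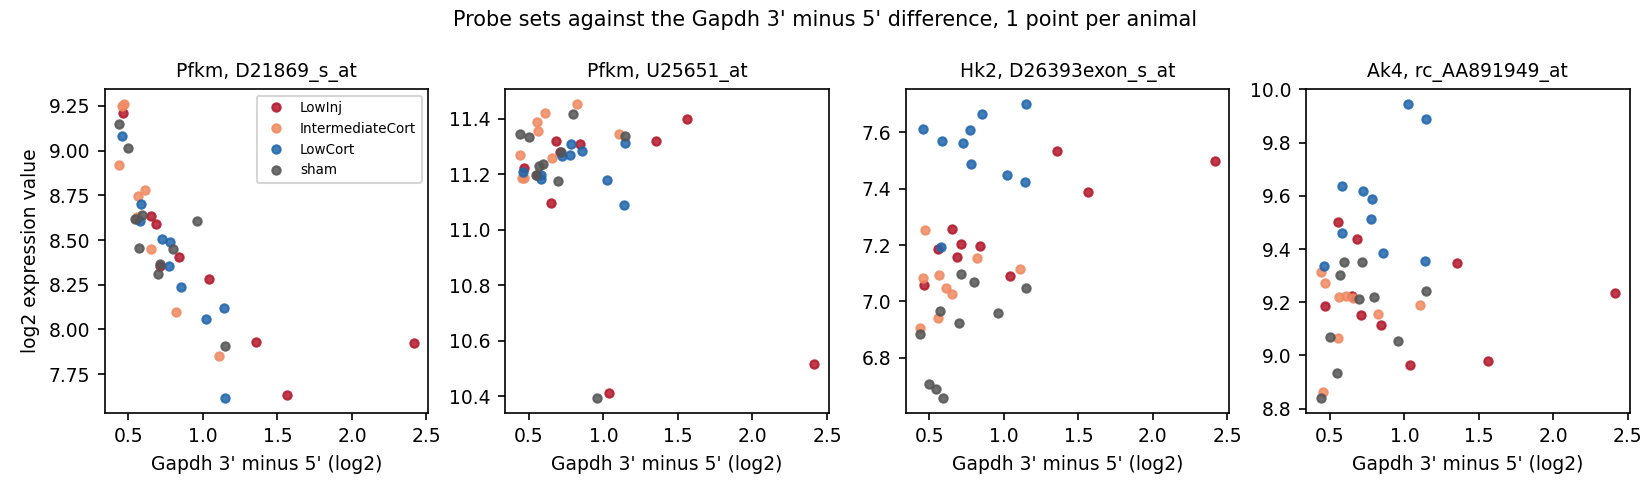
Log2 expression values of both Pfkm probe sets, the exon-derived Hk2 probe set and Ak4 against the log2 difference between the 3' and 5' Gapdh control probe sets, 1 point per animal, coloured by group. D21869_s_at of Pfkm falls steadily along the axis in each group (r = -0.755 with group means removed), U25651_at has r = -0.33 with 3 animals far below the rest, and the LowCort animals lie above all sham animals for Hk2 at small and large differences alike.

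The Hk1 controls followed the beta-actin difference, with r of -0.843 for the 3' control, -0.817 for the middle control and -0.729 for the 5' control (rho -0.807, -0.819 and -0.802, adjusted p = 5.2e-05 each, without the 2 farthest animals -0.752, -0.772 and -0.709). The exon-derived Hk2 probe set was higher where the Gapdh difference was larger (r = 0.528, rho = 0.516, adjusted p = 0.00273 for r and 0.00295 for rho). Without the 2 farthest animals r was 0.451, and within groups it was 0.795 in LowInj, 0.243 in IntermediateCort, 0.148 in LowCort and 0.6 in sham. The other Hk2 probe set went the opposite way (r = -0.406, rho = -0.501, adjusted p = 0.0222 for r). With both control differences as covariates, LowCort minus sham for the exon-derived probe set was 0.59 (SE 0.06), against 0.63 without them, and for the other it was -0.10 (SE 0.05). For the exon-derived probe set, LowInj minus sham was then 0.29 (SE 0.06), against 0.36 without them. Ak4 was not seen to follow the Gapdh difference (r = 0.051, rho = 0.095, adjusted p = 0.877 for r), while it followed the beta-actin difference (r = 0.378, rho = 0.502, adjusted p = 0.0403 for r). Its LowCort minus sham difference with both covariates was 0.38 (SE 0.08).

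Between the members themselves, 78 pairs of probe sets were correlated across the 39 animals in the same way, with permutations within groups. The Pfkp probe sets varied together (r = 0.759, rho = 0.748, adjusted p = 7.09e-05, at the smallest permutation p), with r from 0.725 in LowInj to 0.874 in IntermediateCort. Hk1 by rc_AI012593_at varied with Pfkl (r = 0.764, rho = 0.807, adjusted p = 7.09e-05), and within groups r was 0.648 in LowInj, 0.674 in IntermediateCort, 0.913 in LowCort and 0.892 in sham. Ak4 varied with Pfkp by L25387_g_at (r = 0.679, rho = 0.714, adjusted p = 7.09e-05; 0.812 in LowInj, 0.776 in IntermediateCort, 0.635 in LowCort and 0.642 in sham). Without the 2 farthest animals these 3 values of r were 0.825, 0.798 and 0.73. The largest r between different genes joined Pfkm by D21869_s_at to the 5' control and the middle control of Hk1. They were 0.865 and 0.842 (rho = 0.851 and 0.814, adjusted permutation p = 7.09e-05 each). D21869_s_at and these controls all followed the beta-actin difference (r = -0.739, -0.729 and -0.817). Probe sets of 1 gene did not always vary together: for rc_AI012593_at and U27319exon_at of Hk1, r was -0.017 (rho = 0.035, adjusted p = 0.96 for r).

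The genes whose values followed the exon-derived Hk2 probe set most closely over the 39 arrays were Agrn (r = 0.80), Car4 (0.80), Slfn5 (0.78), Psmb9 (0.77) and Ccnd1 (0.77). With group means removed these values were 0.27 to 0.53, so much of the likeness lay between groups. The M68971_at probe set had other neighbours, led by Hbe2 (r = 0.80, and 0.80 with group means removed), a globin gene, and by Ddr1 (0.77), Myo1d (0.76), Erbb3 (0.74) and Cntn2 (0.74). Ak4 was followed most closely by Elovl5 (0.78), which lengthens fatty acids, Ifitm3 (0.78), Marcks (0.76), Cpq (0.75) and Slco1a4 (0.75), a transporter of the brain endothelium. These correlations were ranked over all tested probe sets, share arrays and groups, and carry no test.

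The rest of the glucose pathway was followed through 7 lists of genes, which had 107 tested probe sets for 68 genes. Against sham, LowCort gave 0 calls by limma, where 1.68% of all probe sets were called. At an unadjusted p under 0.05 there were 15 of 107, against 13.6% of all tested probe sets. In glycogen synthesis, Gyg1, the primer protein of glycogen, rose in IntermediateCort against LowCort by U96130_at (0.17, SE 0.05, limma adjusted p = 0.0486), with 9 of 9 animals above the LowCort mean. Its averages were 8.25 ± 0.09 in IntermediateCort and 8.08 ± 0.08 in LowCort (SD). In the hypoxia list, Hmox1, which breaks down haem, fell in IntermediateCort against LowCort by J02722cds_at (-0.57, SE 0.15, adjusted p = 0.0335), with 9 of 9 animals below the LowCort mean, at 6.05 ± 0.23 in IntermediateCort and 6.62 ± 0.59 in LowCort. This probe set is dim, with means of 6.15 in sham and 6.30 in LowInj, around the filter limit of 6.28. It passed the filter through its high LowCort values, so its call is no independent support. The Gyg1 and Hmox1 probe sets, 2 of the 107 or 1.87%, were the calls in IntermediateCort against LowCort, near the 2.14% of all probe sets. Gyg1 was not called after quantile normalization or with no filter, where Kdr was called in its place (-0.69, adjusted p = 0.0309). The 50th percentile filter left this Hmox1 probe set out of the table, and neither gene was called in a fit on those groups alone. Other probe sets of Gyg1 and Hmox1 (0.10 with adjusted p = 0.795, and -0.14 with adjusted p = 0.151) were not called.

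**Figure D5:**
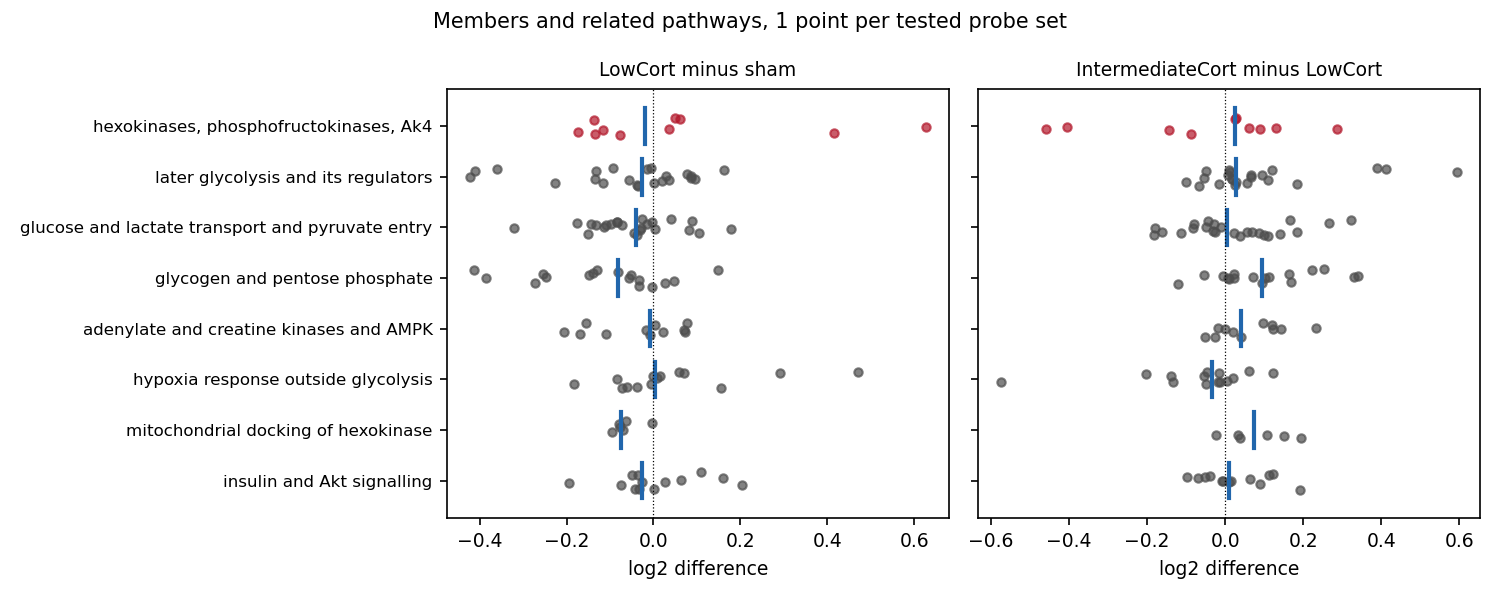
Log2 differences of single tested probe sets for LowCort minus sham and IntermediateCort minus LowCort, with the members in red above the 7 pathway lists in grey and a blue bar at each median. The exon-derived Hk2 probe set lies at 0.63 and Ak4 at 0.42 in the first panel, to the right of every glycolysis probe set. The list drawn up around mitochondrial docking of hexokinase lies below 0 there, with a median of -0.07.

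The list of later glycolysis and its regulators had 9 of 22 probe sets with a positive LowCort minus sham difference and a median of -0.03, against -0.01 over all tested probe sets. Divided by role after the values were seen, 3 of 13 probe sets of the enzymes after phosphofructokinase were positive, with a median of -0.12. Of the regulators that set the level of fructose 2,6-bisphosphate (Pfkfb1 to Pfkfb4) and of fructose bisphosphatase (Fbp2), 6 of 9 were positive, with a median of 0.04. Aldoc, the aldolase of astrocytes, differed by -0.36 (SE 0.12, limma adjusted p = 0.106) between LowCort and sham, with 10 of 10 LowCort animals below the sham mean. Pgam1, which shifts the phosphate of phosphoglycerate, differed by -0.23 on rc_AI169417_s_at (SE 0.07, adjusted p = 0.0614), again with 10 of 10 animals below. On S63233_at and S63233_g_at, its other probe sets, it differed by -0.13 and -0.04. Neither Aldoc nor Pgam1 passed the test with the main settings. Both were called once the 3' minus 5' measures of Gapdh and beta-actin entered as covariates, at -0.36 (adjusted p = 0.0144) for Aldoc and -0.24 (adjusted p = 0.0298) for Pgam1.

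The list drawn up around the docking of hexokinase on mitochondria held the voltage-dependent anion channel Vdac1 and other mitochondrial proteins (Slc25a4, Slc25a5, Tspo and Ppif). In it, 0 of 6 probe sets were positive for LowCort minus sham, with the Vdac1 probe sets at -0.06 and -0.004. The median of the 6 was -0.07, and 0 were called by limma, with 0 at an unadjusted p under 0.05. The glucose and lactate transport list had 6 of 24 probe sets positive and a median of -0.04, with 0 called and 3 at an unadjusted p under 0.05. Among the adenylate and creatine kinases listed, the brain creatine kinase Ckb differed by -0.21 (SE 0.10, adjusted p = 0.326) and the mitochondrial creatine kinase Ckmt1 by -0.17 (SE 0.06, adjusted p = 0.165) between LowCort and sham. Ckmt1 was called with the 3' minus 5' covariates (-0.21, adjusted p = 0.0164). The other probe sets of Ckb and Ckmt1 differed by -0.11 and -0.16 between LowCort and sham. The adenylate and creatine kinase list had 5 of 11 probe sets positive, a median of -0.01 and 0 called, with 2 at an unadjusted p under 0.05. In the insulin and Akt list, the insulin receptor Insr differed by -0.19 (SE 0.06, adjusted p = 0.115), with 10 of 10 LowCort animals below the sham mean.

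CA1 tissue holds several cell types, and in such bulk RNA fewer cells of a type and less RNA per cell cannot be told apart. Hk2 and Ak4 are made by several of them, so marker lists were read in the same arrays. The mean of 6 probe sets of endothelial cells and pericytes was 7.50 (7.35 to 7.63) in LowInj, 7.35 (7.19 to 7.49) in IntermediateCort, 7.56 (7.45 to 7.82) in LowCort and 7.37 (7.31 to 7.48) in sham. LowCort minus sham was positive for 5 of the 6, with a median of 0.08. Of that list Slco1a4 rose in LowCort against sham by 0.56 (SE 0.10, limma adjusted p = 0.000421) and fell in IntermediateCort against LowCort (-0.59, SE 0.10, adjusted p = 0.000352). Kcnj8, a pericyte potassium channel, fell in IntermediateCort against LowCort (-0.63, SE 0.18, adjusted p = 0.0452). The mean of 9 microglia and macrophage probe sets was 7.78 (7.52 to 7.92) in LowInj, 7.65 (7.53 to 7.87) in IntermediateCort, 7.84 (7.64 to 8.00) in LowCort and 7.71 (7.53 to 7.85) in sham, with 6 of 9 positive for LowCort minus sham. The median of these 9 differences was 0.05. Aif1, a calcium-binding protein of microglia, rose in LowCort against sham on U10894_s_at by 0.53 (SE 0.14, adjusted p = 0.0396). Its other tested probe sets, U17919_s_at and the brighter U33471_at (mean 9.04), were not called. The astrocyte list of 15 probe sets averaged 9.18 in LowInj, 9.26 in IntermediateCort, 9.15 in LowCort and 9.32 in sham, with 0 called by limma and 2 at an unadjusted p under 0.05 for LowCort against sham. Lists for CA1 neurons and for other neurons of the hippocampus were read in the same way. The 15 probe sets of forebrain neurons averaged 9.12 (8.82 to 9.64) in LowInj and 9.33 (9.08 to 9.76) in IntermediateCort. They averaged 9.12 (8.78 to 9.76) in LowCort and 9.30 (8.97 to 9.75) in sham. For LowCort minus sham, 3 of 15 were positive and 0 were called by limma, with a median of -0.16. The 6 probe sets of CA1 pyramidal neurons averaged 8.16 (7.94 to 8.37) in LowInj, 8.09 (7.95 to 8.32) in IntermediateCort, 8.40 (8.24 to 8.63) in LowCort and 8.09 (7.72 to 8.37) in sham, with 5 of 6 positive for LowCort minus sham and 3 called, 1 of Nr3c2, the mineralocorticoid receptor (0.44, SE 0.11, adjusted p = 0.0218), and 2 of Dcn. The 6 probe sets of dentate gyrus and CA3 averaged 8.55 (8.35 to 8.78) in LowInj, 8.64 (8.53 to 8.81) in IntermediateCort, 8.41 (8.12 to 8.55) in LowCort and 8.60 (8.47 to 8.81) in sham, with 0 of 6 positive and 1 called, Calb1, which fell in LowCort against sham (-0.61, SE 0.11, adjusted p = 0.000457). The 8 interneuron probe sets averaged 9.51 (9.33 to 9.70) in LowInj, 9.53 (9.34 to 9.64) in IntermediateCort, 9.40 (9.24 to 9.62) in LowCort and 9.57 (9.45 to 9.70) in sham, with 1 of 8 positive. Of these Gad1, which makes GABA, fell by 0.31 (SE 0.07, adjusted p = 0.00758) and Calb2 fell by 0.23 (SE 0.05, adjusted p = 0.0135) in LowCort against sham. Among 6 fibroblast and meningeal probe sets, 3 were positive, and Mgp rose by 0.24 (SE 0.05, adjusted p = 0.00821) in LowCort against sham. In LowInj, IntermediateCort, LowCort and sham, the 11 oligodendrocyte probe sets averaged 10.21, 10.27, 10.23 and 10.26. The 4 blood cell probe sets averaged 9.01, 8.66, 8.71 and 8.73, and the 3 choroid plexus probe sets 7.48, 7.27, 7.33 and 7.47. For LowCort against sham 0 of these were called by limma. Cnp was called in IntermediateCort against LowCort (-0.28, adjusted p = 0.0137) and Alas2 in LowInj against LowCort (0.31, adjusted p = 0.037). The mean endothelial and microglial levels were thus higher in LowCort than in sham, as the exon-derived Hk2 probe set and Ak4 were. So was the mean of the CA1 list, which covered only 3 genes (Nr3c2, Pou3f1 and Dcn). The mean forebrain neuron, dentate and CA3, interneuron and astrocyte levels were lower. Their part in the result was not tested.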

How the data were processed

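Each array was hybridised with RNA of the CA1 block of 1 rat. The deposited values of 8799 probe sets are on a log2 scale, and that base was read from the values, since the highest, 14.37, exceeds the natural logarithm (11.09) and the log10 (4.82) of a 16-bit scanner's maximum. MAS5, RMA and R 2.7.1 are the tools named per the submitters' processing notes, without a role, so the step from scans to values is not stated in what was used here. No further normalization was applied. Summaries of this kind pool probes over a stretch of transcript, so RNA length and probe position can shift a value.

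Genes were named from the platform annotation, and 6985 of 7006 probe sets with 1 symbol matched the GRCr8 gene table by Entrez identifier. After leaving out 59 control probe sets, the 6118 with a mean at or above the 30th percentile (6.28) entered a linear model in limma 3.58.1 (R 4.3.3) that had 4 group means, 35 residual degrees of freedom and Benjamini-Hochberg adjustment per comparison. All 10 member probe sets outside the controls passed that filter. Tests are two-sided, and their precision is set by the 39 arrays. Relations used 100000 permutations (Python 3.11.15, scipy 1.17.1). The procedure was tested on simulated data. The members, the pathway and marker lists and the tests were chosen with earlier results of these data known. From the lists the text names called probe sets, those with the smallest F test p in each list, and, for likeness, the 5 closest genes. No batch, scan date or killing day is labelled per animal.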

Additional observations from a re-analysis of the deposited data

Results flagged for a closer look

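In 3 of the 52 sets of values formed by a member probe set and a group, 1 animal stood apart from the others of its group by Dixon's criterion, which chance meets in about 1 of 20 sets. The 5' control of Hk1 was highest in LowInj subject 30, at 8.04, against 5.86 to 6.98 in the other LowInj animals. Pfkp by L25387_at was lowest in LowCort subject 20, at 8.87, against 9.11 to 9.37 in the other LowCort animals. Pfkm by U25651_at was lowest in sham subject 6, at 10.39, against 11.18 to 11.42 in the other sham animals, and LowInj subjects 34 and 35 were as low, at 10.41 and 10.52.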

How the results depend on the processing

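No paired analysis was possible because each subject number belongs to a single animal. Over 8 planned and 3 added settings and 39 refits that each left out 1 array, the exon-derived Hk2 probe set and Ak4 stayed called for LowCort minus sham (0.59 to 0.63 and 0.38 to 0.42 over the settings, 0.60 to 0.66 and 0.37 to 0.44 over the refits) and for IntermediateCort minus LowCort (-0.48 to -0.41 and -0.43 to -0.37 over the settings), except that a filter at the 50th percentile leaves the Hk2 probe set out of the table. The covariate for subject number, the Hk1 controls in the table and the fit without the 2 arrays with the largest Gapdh difference were chosen after seeing the data.

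The 50th percentile filter gave 1 member call for LowCort minus sham, 0 for LowInj minus sham and 1 for IntermediateCort minus LowCort. For LowInj minus LowCort, members called were 2 with array weights, 2 with the 3' to 5' covariates, 2 with the subject number covariate and 0 with the 2 groups alone, and 0 to 2 over the refits. Hk2 (exon-derived) was then called at -0.2962 with weights, -0.3057 with covariates, -0.2697 with subject number and -0.3165 without the 2 arrays (refits -0.3068 to -0.2475, called without sham 9, IntermediateCort 11, LowCort 26, LowInj 35 or LowInj 38). Ak4 was not called at -0.3594 with the 2 groups alone and -0.3327 without the 2 arrays (refits -0.3915 to -0.318, lost without LowCort 28 or 29 or LowInj 33, 34 or 39). With the 2 groups alone, LowInj minus sham gave 0 members, Hk2 at 0.357. Differences near 0 changed sign: Ak4 for IntermediateCort minus sham was -0.0136 with weights and -0.0197 after quantile normalization (refits -0.0251 to 0.0488). The M68971_at probe set for IntermediateCort minus LowCort was -0.0125 with weights and -0.0159 with covariates (refits -0.0057 to 0.0421), and for LowInj minus IntermediateCort the refits gave -0.0047 to 0.0421.

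Pathway probe sets called for LowCort minus sham numbered 1 with no filter, 3 with weights, 3 with covariates, and 1 each after quantile normalization, with the 2 groups alone, with subject number and without the 2 arrays (refits 0 to 1). For IntermediateCort minus LowCort they numbered 1 at the 50th percentile, 5 with weights, 4 with covariates and 1 after quantile normalization (refits 0 to 3, other than 2 in 29 of 39). LowInj minus LowCort gave 3 with weights and 1 with covariates, and LowInj minus IntermediateCort 2 with weights. Over all probe sets, LowCort minus sham gave 103 calls, against 170 with weights, 175 with covariates and 185 with subject number. IntermediateCort minus LowCort gave 131, against 338 with weights. LowInj minus LowCort gave 21, against 50 with weights, 36 with subject number, 14 with the 2 groups alone and 14 without the 2 arrays. LowInj minus sham gave 14, against 33, 22 (covariates), 30 (subject number), 5 (50th percentile) and 1 (2 groups alone). LowInj minus IntermediateCort gave 12, against 105, 19, 21, 6 and 0 in the same order, and IntermediateCort minus sham 1, against 2, 12, 2, 1 and 4. The cause of these differences was not tested.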
